A study of Mus musculus with 160 samples.

Results

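The VEGF and angiopoietin ligands and receptors were followed as 10 genes of the 46078 counted in 20-cell pools sorted from the mouse aorta-gonads-mesonephros (AGM), the embryonic region in which the first haematopoietic stem cells form. They were the rows whose Ensembl identifiers match the symbols Kdr, Flt1, Flt4, Tek and Tie1 (receptors) and Vegfa, Vegfb, Vegfc, Angpt1 and Angpt2 (ligands) in GENCODE M21, and each symbol matched 1 row. RNA-seq by SmartSeq2 was made from 160 pools, 20 from each of 8 populations. All embryos carried the genotype Gata3-GFP +/-, in which GFP is made from the Gata3 locus, so the Gata3-GFP- fractions carry the same allele. At E10.5, endothelial cells (EC) were sorted as Cdh5+ and CD41/45- and haematopoietic cells (HC) as positive for the combined CD41 and CD45 stain (CD41/45+), each split into Gata3-GFP+ and Gata3-GFP- fractions. At E11.5, mesenchymal cells (MC) were sorted by Pdgfrb and sympathetic nervous system cells (SNS) by Ngfr, split in the same way. At E10.5 the cells came from 3 to 5 biological replicates, each pooled from several embryos, and were sorted again into the 20 pools, while for E11.5 the number of biological replicates is not given in the sources used here. No label ties a pool to an embryo or a replicate, so n counts pools, not embryos, and every SD, SE and p-value measures the spread between pools, which may be technical and understate the spread between embryos. The question behind the design is what sets cells that switch on Gata3 apart from cells of the same type that do not.

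VEGF ligands are secreted proteins that drive endothelial growth, survival and permeability through receptor tyrosine kinases. Kdr carries most of the Vegfa signal, Flt1 binds Vegfa, Vegfb and the related ligand Pgf with a weak kinase and can act as a trap for them, and Flt4 is the receptor for Vegfc and is best known from lymphatic and venous endothelium. Tek (also called Tie2) is the angiopoietin receptor: Angpt1 activates it and steadies vessels, Angpt2 acts mainly as its context-dependent antagonist, and Tie1 is a related receptor that pairs with Tek.

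The promoters shown are those of the members whose levels in Gata3-GFP+ and Gata3-GFP- ECs did not overlap. How many of all genes also failed to overlap was not counted, so this choice does not set the members apart from other genes. Each promoter runs from 250 bases before to 50 bases after the RefSeq start of the gene in GRCm38.p6. It is written 5′ to 3′ on the gene's own strand. Capitals mark matches on either strand to a GATA motif (AGATAA with its variant AGATAG, and TGATAA with its variant TGATAG) or to an ETS motif (CGGAAG or AGGAAG). The ranges are chr4:94739039-94739338 (+) for Tek, chr4:118489800-118490099 (-) for Tie1, chr17:46032328-46032627 (-) for Vegfa, chr8:54077282-54077581 (+) for Vegfc and chr11:49609429-49609728 (+) for Flt4.
Tek: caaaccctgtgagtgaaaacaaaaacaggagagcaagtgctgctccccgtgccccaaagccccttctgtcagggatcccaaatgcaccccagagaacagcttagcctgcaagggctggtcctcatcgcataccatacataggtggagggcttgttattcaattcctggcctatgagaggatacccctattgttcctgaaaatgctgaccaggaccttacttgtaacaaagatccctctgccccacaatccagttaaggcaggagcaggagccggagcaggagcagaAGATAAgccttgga
Tie1: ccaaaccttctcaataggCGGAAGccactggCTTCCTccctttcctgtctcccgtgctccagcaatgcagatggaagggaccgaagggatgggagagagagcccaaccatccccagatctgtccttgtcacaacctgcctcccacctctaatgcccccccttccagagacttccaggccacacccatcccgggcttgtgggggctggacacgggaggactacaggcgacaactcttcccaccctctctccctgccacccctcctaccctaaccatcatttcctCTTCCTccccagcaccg
Vegfa: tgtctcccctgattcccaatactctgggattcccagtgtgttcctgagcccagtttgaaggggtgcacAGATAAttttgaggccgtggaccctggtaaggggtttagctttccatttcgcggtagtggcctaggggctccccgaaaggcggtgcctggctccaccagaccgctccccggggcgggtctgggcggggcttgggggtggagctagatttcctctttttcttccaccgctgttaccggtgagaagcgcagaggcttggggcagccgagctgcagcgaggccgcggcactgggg
Vegfc: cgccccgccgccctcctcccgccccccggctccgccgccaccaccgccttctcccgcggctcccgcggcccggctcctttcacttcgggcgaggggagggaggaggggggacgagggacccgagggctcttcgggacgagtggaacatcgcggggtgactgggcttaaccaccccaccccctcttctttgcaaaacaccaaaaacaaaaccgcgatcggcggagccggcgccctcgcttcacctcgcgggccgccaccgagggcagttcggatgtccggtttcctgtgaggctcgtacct
Flt4: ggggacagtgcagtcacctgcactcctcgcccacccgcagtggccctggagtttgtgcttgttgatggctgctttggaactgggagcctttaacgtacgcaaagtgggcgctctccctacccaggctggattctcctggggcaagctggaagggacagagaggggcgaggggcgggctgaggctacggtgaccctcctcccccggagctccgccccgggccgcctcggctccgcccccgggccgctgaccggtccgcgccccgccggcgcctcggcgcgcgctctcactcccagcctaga
Tek held 1 GATA match, 37 bases after the start, and Vegfa held 1 GATA match, 182 bases before the start. Tie1 held 3 ETS matches, and neither the Vegfc nor the Flt4 window held a match to either motif. Over 32817 RefSeq promoters of the same length, 29.8% held a GATA match and 46.5% an ETS match, so 1 match in such a window is common. Of the other members, Flt1 held 2 ETS matches, Kdr and Vegfb held none, and Angpt1 and Angpt2 had no entry. The 2 Vegfa entries differ in start site, and the second, at chr17:46025114-46025413, held no match.

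The genes lie on GRCm38 at chr5:75932827-75978458 (-) for Kdr, chr5:147561604-147726011 (-) for Flt1, chr11:49609263-49652739 (+) for Flt4, chr4:94739289-94874976 (+) for Tek and chr4:118471191-118490061 (-) for Tie1. The ligand genes lie at chr17:46016993-46032369 (-) for Vegfa, chr19:6982473-6987651 (-) for Vegfb, chr8:54077606-54187096 (+) for Vegfc, chr15:42424723-42676977 (-) for Angpt1 and chr8:18690263-18741562 (-) for Angpt2. Counts were made over the exons of each gene. Angpt1 shares 14.2% of its exon bases with Gm17473 on the opposite strand, and no other member shares exon bases with an annotated gene.

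Of the 160 pools, 7 failed the limits on reads and spike-in share, and the rest held 1400824 to 16004756 gene counts each. Endothelial markers summed to 5159 to 11968 CPM (counts scaled to a common library size) in EC pools and 12.7 to 609 in all others, and haematopoietic markers to 1876 to 5259 in HC pools. In 12 E11.5 pools, 3 of each population, the cell type markers went against the label: the 6 libraries labelled MC held 1503 to 3884 CPM of sympathetic and Schwann precursor markers, where the other 31 MC pools held at most 50.6, and the 6 libraries labelled SNS held at most 55.4, where the other 31 held at least 1149. These 12 are kept under their labels, and the comparisons of MC and SNS are given with and without them. Levels, the order of population means and correlations are over all passing pools unless stated otherwise. Gata3 itself averaged 78.7 CPM in the GFP+ and 12.2 in the GFP- fraction of ECs, 50.05 and 6.91 in HCs, 37.7 and 59.4 in MCs and 160.6 and 44.6 in SNS pools. Without the 12 pools, Gata3 in the MC fractions ran from 19.7 to 70.5 and from 2.52 to 19.04 CPM, with no overlap. In the 12 pools, Gata3 ran from 122.7 to 395 CPM under the Gata3-GFP- MC label and from 16.3 to 82.3 under Gata3-GFP+ MC. It ran from 44.4 to 50.2 under Gata3-GFP- SNS and from 9.97 to 24.3 under Gata3-GFP+ SNS. For both labelled cell types, Gata3 in these 12 pools was thus higher under the GFP- label.

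The 5 receptors were endothelial. Every EC pool held more Kdr, Flt1, Flt4, Tek and Tie1 than any HC, MC or SNS pool. Kdr, the main VEGF receptor, averaged 670 CPM over the 39 EC pools, 17.7 over the 40 HC pools, 5.13 over the 37 MC pools and 4.22 over the 37 SNS pools. Tek averaged 454, 7.32, 2.28 and 0.498 CPM in the same order, and 31 of the 37 SNS pools had no Tek count at all. Tie1 averaged 448 CPM in ECs and 17.7 in HCs, and the 74 MC and SNS pools together held 7 Tie1 counts, at most 2 in a pool, so no fold change is given there. Flt4 was the lowest of the 5 in HCs, at 1.88 CPM. In the order of the population means, the EC fractions and the Gata3-GFP+ HCs stood apart from their neighbours for each receptor by more than the spread between pools, except the Kdr levels of the EC fractions, and Flt1, Flt4 and Tek in Gata3-GFP+ against Gata3-GFP- HCs. Below the HCs, neighbouring populations did not differ beyond their spread, except Tie1 between Gata3-GFP- HCs and Gata3-GFP- MCs.

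**Figure D1:**
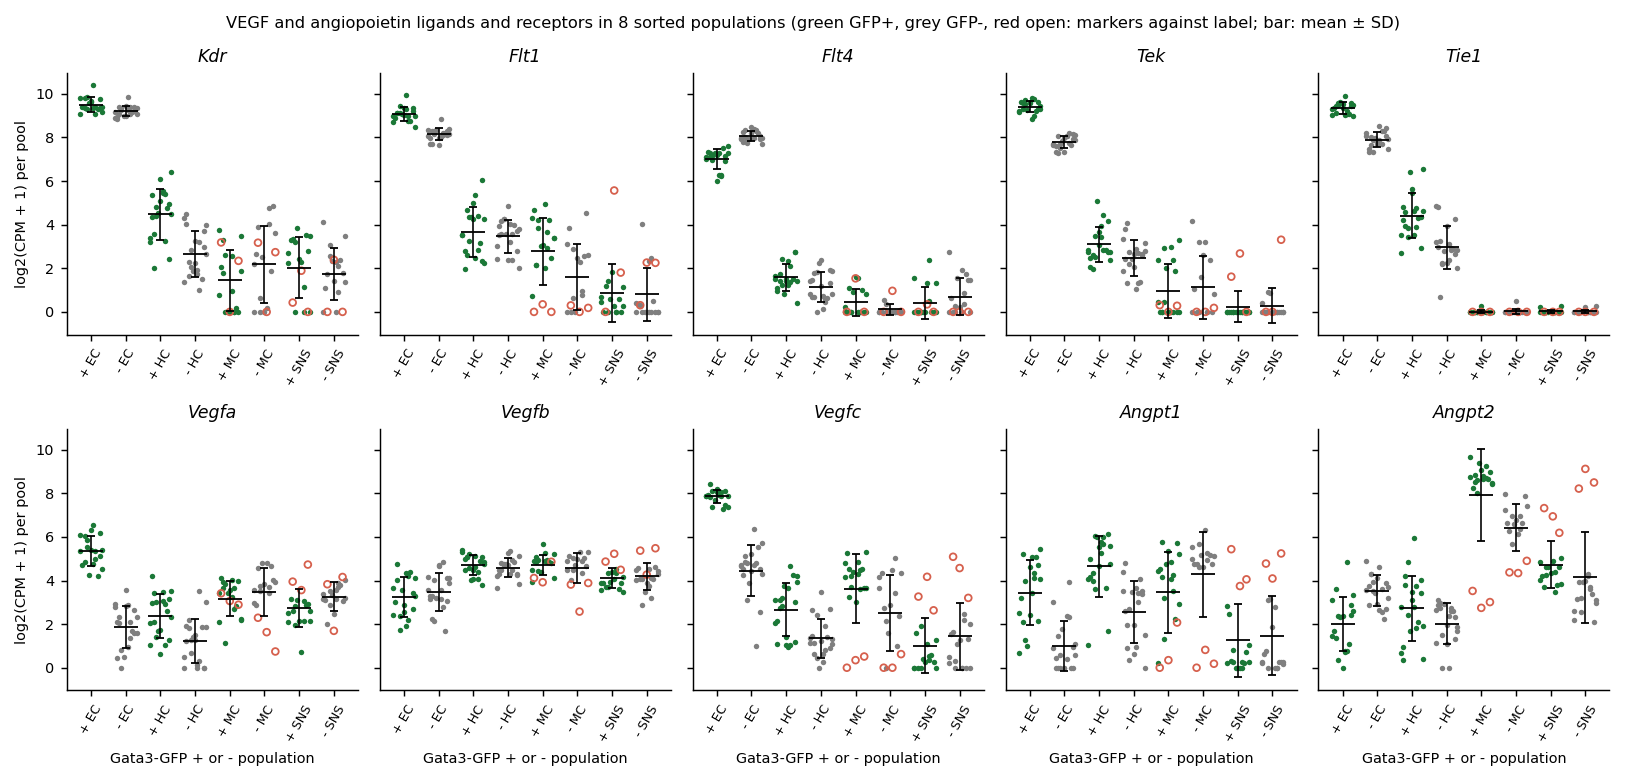
Level of each member as log2(CPM + 1) in each passing pool (points) by sorted population, with mean and SD as bars and the 12 pools whose markers go against their label in open red. The 5 receptors in the upper row sit highest in both EC fractions, Vegfa and Vegfc are high in Gata3-GFP+ ECs, and Angpt2 peaks in the MC pools. Vegfb is lowest in the EC fractions, with population means from 10.3 to 26.8 CPM.

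The ligands were spread over the populations. Vegfa, the founding ligand of the family, averaged 44.04 CPM in Gata3-GFP+ ECs and stood apart from all others, the next being Gata3-GFP- MCs at 12.9, and the remaining populations lay between 2.04 and 9.41 with no neighbours differing beyond their spread. Vegfc averaged 235 CPM in the GFP+ and 26.6 in the GFP- fraction of ECs, followed by Gata3-GFP+ MCs at 16.6. Vegfb lay between 10.3 and 26.8 CPM in all 8 populations, with no pair of neighbours apart. Angpt1 was highest in Gata3-GFP+ HCs at 33.3 CPM and Gata3-GFP- MCs at 29.6, which did not differ beyond their spread, and lowest in Gata3-GFP- ECs at 1.91. This order rests on the pools whose markers go against their label: without these, Angpt1 averaged 35.9 CPM in Gata3-GFP- MCs, above the Gata3-GFP+ HCs, and 0.954 and 1.66 in the GFP+ and GFP- fractions of the SNS, below the Gata3-GFP- ECs. Angpt2 averaged 387 CPM in Gata3-GFP+ MCs and 105.96 in Gata3-GFP- MCs, against 12.01 or less in the EC and HC fractions. The order of the Angpt2 levels in the SNS fractions, 36.2 and 72.2 CPM, likewise turned without these pools, to 19.9 and 9.99.

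In the ECs, 4 of the 5 receptors were higher in the Gata3-GFP+ fraction and Flt4 was lower. The quasi-likelihood test of edgeR over 15073 genes (calls needed a log2 fold change over 0.1 in size with an adjusted p below 0.01) called 19.5% of them higher and 16.5% lower in Gata3-GFP+ ECs, and of the 10 members 7 were higher and 2 lower. Tek ran from 453 to 907 CPM (median 705) in 19 Gata3-GFP+ pools and from 157.1 to 293 (median 220) in 20 Gata3-GFP- pools. The fractions did not overlap for Tek (overlap was not counted over all genes), and the log2 fold change was 1.60 (SE 0.0884, adjusted p = 7.64e-19). Tie1 likewise did not overlap, with 508 to 966 CPM (median 657) against 160 to 373 (median 239) and a log2 fold change of 1.40 (SE 0.0959, adjusted p = 5.4e-16). Tek and Tie1 both rose, and the mean ratio between them differed between fractions by less than its SD: the log2 ratio of Tie1 to Tek, per kilobase of exon with 1 CPM per kilobase added, was -0.13 ± 0.26 (SD, n = 19) in the GFP+ fraction against 0.05 ± 0.37 (n = 20) in the other.

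The VEGF receptors moved unequally. Flt1, the trap receptor, ran from 359 to 976 CPM (median 543) in the GFP+ fraction and from 202 to 455 (median 287) in the GFP- fraction. All 19 Gata3-GFP+ pools exceeded the Gata3-GFP- median and 15 exceeded the whole other fraction, with a log2 fold change of 0.93 (SE 0.0943, adjusted p = 4.82e-11). Kdr ran from 533 to 1352 CPM (median 672) and from 460 to 912 (median 583), ranges that largely overlap. Its log2 fold change of 0.29 (SE 0.0907, adjusted p = 0.00719) turned to -0.26 when pools were scaled by the spiked-in ERCC RNAs, which moves the median of all genes by -0.70 in this comparison, and Flt1 then fell short of the threshold at 0.37 (adjusted p = 0.110). Kdr also fell short in one fit of the 4 E10.5 populations (adjusted p = 0.366), with scran size factors (0.19, adjusted p = 0.0766) and with all pools kept (0.26, adjusted p = 0.0343). Flt4, the Vegfc receptor, went the other way, from 63.8 to 197 CPM (median 140.7) against 204 to 351 (median 258), with every Gata3-GFP+ pool below every Gata3-GFP- pool and a log2 fold change of -1.06 (SE 0.108, adjusted p = 5.94e-11). The log2 ratio of Flt1 to Kdr within a pool was -0.98 ± 0.29 (SD, n = 19) for the GFP+ and -1.60 ± 0.24 (n = 20) for the GFP- fraction. Scaling between pools touches this ratio only through the 1 CPM per kilobase added.

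Among the ligands of the ECs, Vegfa, Vegfc and Angpt1 were higher and Angpt2 lower in the Gata3-GFP+ fraction. Vegfa ran from 17.6 to 91.5 CPM (median 39.4) in the GFP+ fraction and from 0 to 10.7 (median 3.20) in the GFP- fraction, with no overlap and a log2 fold change of 3.63 (SE 0.331, adjusted p = 2.69e-12). Vegfc ran from 156.3 to 340 CPM (median 235) and from 1.01 to 82.3 (median 24.5), again with no overlap, and its log2 fold change was 3.11 (SE 0.245, adjusted p = 3.77e-14). The fraction with more Vegfc was thus the fraction with less Flt4. Angpt1 ran from 0.618 to 42.6 CPM (median 14.7) and from 0 to 14.4 (median 0.516), and 10 of 19 Gata3-GFP+ pools exceeded the whole other fraction (log2 fold change 3.04, SE 0.607, adjusted p = 5.81e-05). Angpt2 ran from 0 to 27.8 CPM (median 4.01) and from 3.67 to 28.4 (median 11.1), and 9 of 19 Gata3-GFP+ pools lay below every Gata3-GFP- pool (log2 fold change -1.30, SE 0.408, adjusted p = 0.00796, 0.0176 in one fit of the 4 E10.5 populations, and 0.0134 with no filter on genes). Vegfb, at 2.30 to 26.2 and 2.20 to 27.7 CPM, was not called (log2 fold change -0.26, SE 0.305, adjusted p = 0.511).

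Markers of other cells moved with the EC fractions. Endothelial markers were called higher in Gata3-GFP+ ECs for 9 of 10 genes and lower for 1, with summed levels of 7220 to 11968 and 5159 to 7555 CPM, and Cdh5, by which ECs were sorted, averaged 1071 and 435. All 7 tested mesenchymal markers of 9 were higher, with sums of 26.1 to 1580 (median 94.5) and 3.87 to 72.2 CPM (median 16.02), and the mural sums were 13.3 to 3294 (median 236) and 51.2 to 130.7 (median 86.1), with 2 of 4 tested mural markers higher and 1 lower. Of 8 tested haematopoietic markers 3 were higher and none lower, and their sums did not overlap, at 173 to 460 in the GFP+ and 43.5 to 131.1 CPM in the GFP- fraction. Both tested sympathetic markers were higher, with sums of 3.47 to 62.9 and 0 to 8.71 CPM, as were 2 of 3 tested erythroid markers, while no macrophage or megakaryocyte marker was called. One Gata3-GFP+ pool held the top mesenchymal and the top mural sum, and without it the same numbers of members, 7 higher and 2 lower, were called. The part of these markers in the changes of the members was not tested. In such bulk pools, fewer cells making a transcript and less transcript per cell cannot be told apart.

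**Figure D2:**
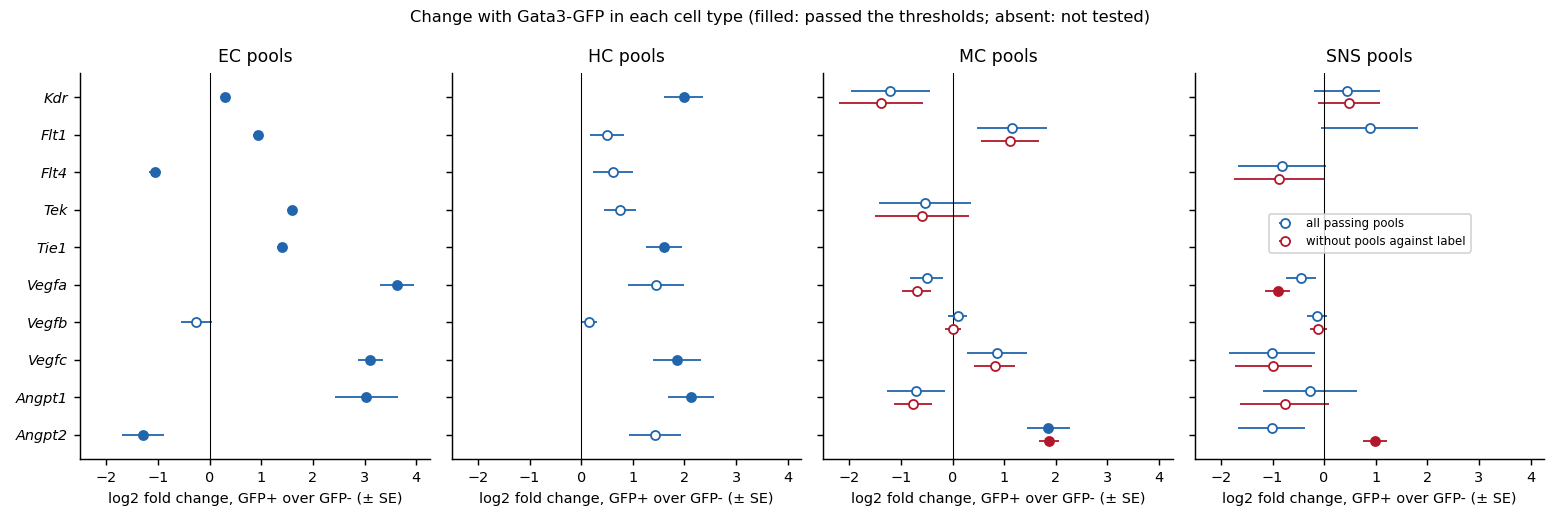
Log2 fold change of each member between the GFP fractions within a cell type with its SE, from edgeR (filled points passed the thresholds, absent points were not tested), in blue over all passing pools and in red without the 12 pools against their labels. In ECs, 7 members lie above 0 and 2 below with a call, Kdr being the closest to 0 and turning sign with ERCC scaling. In SNS pools, Angpt2 lies on opposite sides of 0 in the fits with and without these pools.

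Per kilobase of exon, which allows genes to be set side by side, the Tie receptors led in Gata3-GFP+ ECs, with mean levels of 147.4 CPM per kilobase for Tek and 134.5 for Tie1, followed by Vegfc at 96.1, Kdr at 82.8, Flt1 at 41.3, Flt4 at 16.1 and Vegfa at 10.3. In Gata3-GFP- ECs the order was Kdr at 66.1, Tie1 at 49.7, Tek at 47.7, Flt4 at 32.9, Flt1 at 21.2, Vegfc at 10.9, Vegfb at 7.53, Angpt2 at 3.25, Vegfa at 0.806 and Angpt1 at 0.368. By these lengths, Kdr led the members in Gata3-GFP- ECs, and was behind Tek, Tie1 and Vegfc in Gata3-GFP+ ECs. The lengths merge all annotated exons of a gene and can exceed the transcripts made, so the order between genes depends on them. The balance of angiopoietins in a pool also differed: the log2 ratio of Angpt2 to Angpt1 was -0.71 ± 1.21 (SD, n = 19) for the GFP+ and 1.63 ± 0.73 (n = 20) for the GFP- fraction. Its size depends on the amount added, since the mean Angpt1 level in Gata3-GFP- ECs is below 1 CPM per kilobase: with 0.1 CPM per kilobase added the means were -1.22 and 3.50, and with 5 they were -0.31 and 0.60.

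**Figure D3:**
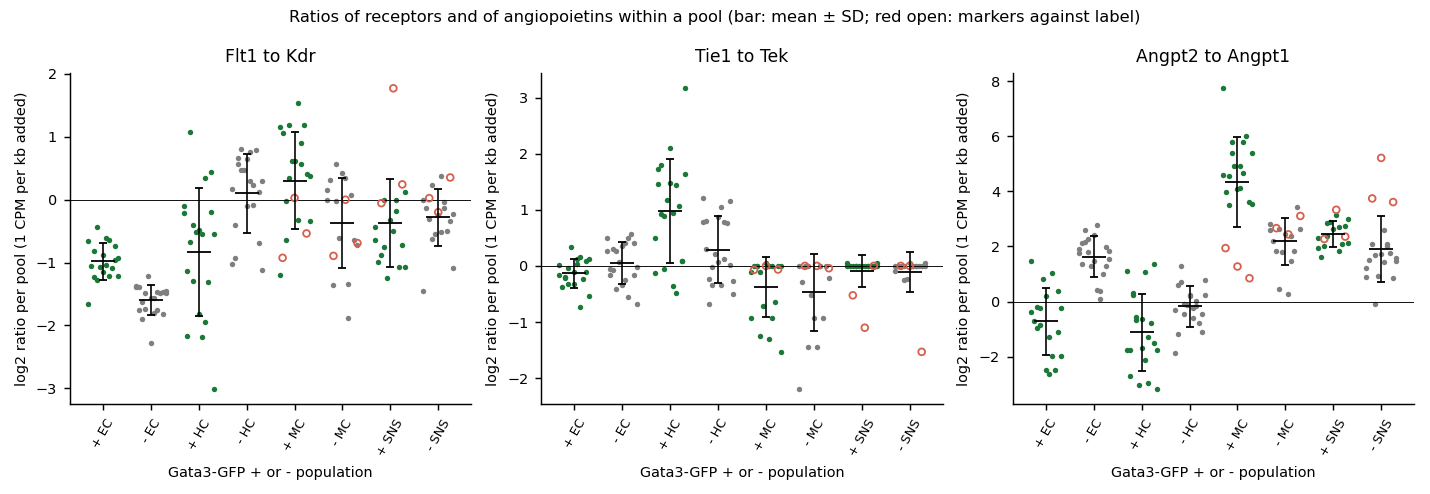
Log2 ratio of 2 members within each pool (points, level per kilobase of exon with 1 CPM per kilobase added) for Flt1 to Kdr, Tie1 to Tek and Angpt2 to Angpt1 in the 8 populations, with mean and SD as bars and pools against their label in open red. Angpt2 to Angpt1 is below 0 on average in Gata3-GFP+ ECs and above 0 in Gata3-GFP- ECs, and is highest in Gata3-GFP+ MCs.

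In the HCs, Kdr, Tie1, Vegfc and Angpt1 were higher in the Gata3-GFP+ fraction and no member was called lower, where 17.1% of the 16200 genes tested were higher and 9.53% lower. Kdr ran from 3.07 to 83.8 CPM (median 24.2) in 20 Gata3-GFP+ pools and from 0.989 to 21.6 (median 4.63) in 20 Gata3-GFP- pools. The pools overlapped, with 12 Gata3-GFP+ pools above the whole other fraction, and the log2 fold change was 1.99 (SE 0.379, adjusted p = 5.07e-05). Tie1 ran from 5.60 to 92.1 CPM (median 19.03) and from 0.597 to 28.3 (median 6.25), with a log2 fold change of 1.61 (SE 0.350, adjusted p = 0.000285). Angpt1, the Tek agonist, ran from 1.05 to 68.6 CPM (median 28.4) and from 0 to 26.7 (median 6.21), with 10 Gata3-GFP+ pools above the whole other fraction and a log2 fold change of 2.13 (SE 0.443, adjusted p = 0.000171). Vegfc was low in both fractions, at 0.930 to 24.2 CPM (median 6.66) and 0 to 10.2 (median 1.25), with a log2 fold change of 1.85 (SE 0.464, adjusted p = 0.00143). Vegfa (1.45, adjusted p = 0.0306), Angpt2 (1.43, adjusted p = 0.0217), Tek (0.75, adjusted p = 0.0582), Flt4 (0.62, adjusted p = 0.226), Flt1 (0.50, adjusted p = 0.241) and Vegfb (0.16, adjusted p = 0.442) had log2 fold changes that did not pass in edgeR's fit of the HC pools. Vegfa was called in one fit of the 4 E10.5 populations (adjusted p = 0.00468) and by scanpy (adjusted p = 0.00495), Tek in the same joint fit (adjusted p = 0.00983) and Angpt2 by DESeq2 (adjusted p = 0.00655).

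Megakaryocyte markers moved with the HC fractions: all 8 were called higher in Gata3-GFP+ HCs, with summed levels of 1705 to 61347 CPM (median 9990) against 130.6 to 4064 (median 597). The Gata3-GFP+ pool with the highest sum held 83.8 CPM of Kdr and 92.1 of Tie1, the top value of each. Of 8 macrophage markers 3 were lower and none higher in Gata3-GFP+ HCs, with sums of 216 to 6748 (median 3120) and 4026 to 8559 CPM (median 5075). Of 10 endothelial markers 5 were higher and 1 lower, with sums of 154.9 to 609 (median 286) and 160 to 315 CPM (median 210), and Cdh5 averaged 11.6 and 4.48. All 8 sympathetic markers were higher, with sums of 1.501 to 1567 (median 35.9) and 0.297 to 9.55 CPM (median 4.07), as were 8 of 9 mesenchymal markers, with sums of 18.5 to 979 (median 370) and 3.37 to 175 CPM (median 42.7). Of 10 haematopoietic markers 7 were lower and 2 higher, with sums of 1876 to 3800 (median 2634) and 3495 to 5259 CPM (median 4299). Markers called higher also included 4 of 6 tested mural, 3 of 4 Schwann precursor and 3 of 3 mesonephric genes, with none lower. The part of these markers in the changes of Kdr, Tie1, Vegfc and Angpt1 was not tested.

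**Figure D4:**
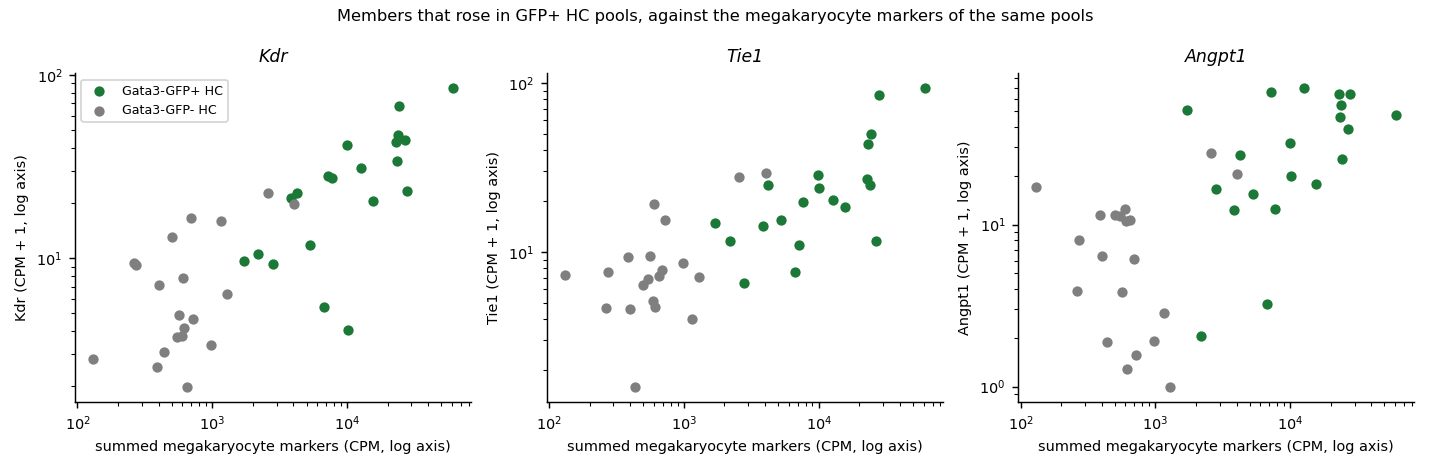
Levels of Kdr, Tie1 and Angpt1 (CPM + 1) against the summed megakaryocyte markers (CPM) in 20 Gata3-GFP+ (green) and 20 Gata3-GFP- (grey) HC pools, all axes logarithmic. The 7 pools with more than 20000 CPM of megakaryocyte markers, a line set for description only, are all Gata3-GFP+ and hold the top Kdr and Tie1 values. Above every Gata3-GFP- pool lie 12 Gata3-GFP+ pools for Kdr, 4 for Tie1 and 10 for Angpt1, so some for Kdr and Angpt1 are below this line. The other marker lists that rose in Gata3-GFP+ HCs are not plotted.

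Set against each other at the same stage, HCs held less of 7 members and more of 2 than ECs, over 17851 genes of which 26.6% were higher and 24% lower in HCs. The 5 receptors fell by 4.75 (Tie1) to 6.79 (Flt4) on the log2 scale, Vegfc had a log2 fold change of -4.33 (SE 0.254, adjusted p = 1.03e-26) and Vegfa of -1.94 (SE 0.305, adjusted p = 5.15e-08). Angpt1 (log2 fold change 1.55, SE 0.366, adjusted p = 0.000169) and Vegfb (1.14, SE 0.168, adjusted p = 9.79e-09) were higher in HCs. The change with Gata3-GFP itself differed between HCs and ECs for 4 members in edgeR's interaction term, where 14.1% of genes were higher and 8.6% lower. Kdr (1.72, SE 0.366, adjusted p = 0.000102), Flt4 (1.69, SE 0.321, adjusted p = 1.62e-05) and Angpt2 (2.70, SE 0.655, adjusted p = 0.000661) had a more positive change in HCs than in ECs. Vegfa had a less positive one (-2.14, SE 0.606, adjusted p = 0.00367). For Tek the difference was -0.87 (SE 0.301, adjusted p = 0.0196) and did not pass, although it was called with scran size factors (-0.997, adjusted p = 0.00705) and by DESeq2 (-0.91, adjusted p = 0.00864).

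In the MCs, Angpt2 was the only member called between the fractions, higher in Gata3-GFP+ MCs, where 2.21% of the 16026 genes tested were higher and 2.15% lower. It ran from 5.71 to 810 CPM (median 407) in 20 Gata3-GFP+ pools and from 19.3 to 253 (median 98.2) in 17 Gata3-GFP- pools, with a log2 fold change of 1.86 (SE 0.419, adjusted p = 0.00312, and 0.0214 in one fit of the 4 E11.5 populations). In the GFP+ fraction 17 pools exceeded the highest Gata3-GFP- pool and 3 were below the lowest, and these 3 are the libraries labelled Gata3-GFP+ MC whose markers were neural. Without the pools against their labels, Angpt2 ran from 256 to 810 CPM in 17 and from 50.4 to 253 in 14 pools, with no overlap and a log2 fold change of 1.87 (SE 0.192, adjusted p = 8.26e-09), and 5.52% of genes were higher and 4.89% lower. In these pools the mesenchymal and mural markers summed to 10255 to 15503 CPM in Gata3-GFP+ and 4343 to 7850 in Gata3-GFP- MCs, and 4 of 7 mural markers (0 lower) and 4 of 9 mesenchymal markers (1 lower) were called higher. Their part in the Angpt2 change was not tested. Flt4 and Tie1 did not reach 10 counts in 5 pools and were not tested.

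Of the other MC ligands, Angpt1 averaged 18.2 CPM in the GFP+ and 29.6 in the GFP- fraction and Vegfa 9.13 and 12.9, neither of which was called with or without the pools against their labels. Without those pools the means were 21.2 and 35.9 for Angpt1 and 9.36 and 15.2 for Vegfa. Then 11 of 17 Gata3-GFP+ pools for Angpt1 and 6 for Vegfa lay below every Gata3-GFP- pool. In that edgeR fit 3 of 8 tested members, and 4370 of 15226 genes, had an unadjusted p under 0.05. The log2 ratio of Angpt2 to Angpt1 was 4.86 ± 1.09 (SD) over 17 Gata3-GFP+ and 2.06 ± 0.87 over 14 Gata3-GFP- MC pools whose markers fit the label, and the first of these was the highest mean of the 8 populations. It was 2.42 ± 0.46 over 15 Gata3-GFP+ and 1.49 ± 0.64 over 16 Gata3-GFP- SNS pools.

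In the SNS pools no member was called over all passing pools by edgeR, where 2.01% of the 16143 genes tested were higher and 1.86% lower in the Gata3-GFP+ fraction, and none of the 8 tested members had an unadjusted p under 0.05, although the Wald test of DESeq2 called 1, Angpt2, as higher. Angpt2 ran from 10.1 to 158.9 CPM (median 22.04) in 18 Gata3-GFP+ pools and from 3.27 to 555 (median 11.3) in 19 Gata3-GFP- pools (log2 fold change -1.01, SE 0.652, adjusted p = 0.394). The highest 3 values of each fraction, 71.9, 122.02 and 158.9 CPM and 296, 360 and 555 CPM, all belong to libraries labelled SNS whose markers were mesenchymal and mural. Without them the direction turned: Angpt2 ran from 10.1 to 31.8 CPM in 15 pools and from 3.27 to 18.7 in 16, higher in Gata3-GFP+ (log2 fold change 0.99, SE 0.225, adjusted p = 0.00167). In the same fit Vegfa was lower in Gata3-GFP+ SNS pools, at 0.657 to 7.81 against 3.05 to 15.3 CPM (log2 fold change -0.90, SE 0.243, adjusted p = 0.00787), and 4.94% of genes were higher and 5.48% lower. In these pools 7 of 9 mesenchymal markers were lower and 7 of 8 sympathetic markers higher in the Gata3-GFP+ fraction, and their part was not tested. Tek and Tie1 were not tested in the SNS comparison, and Tek was at 0 counts in all 15 Gata3-GFP+ SNS pools whose markers fit the label.

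**Figure D5:**
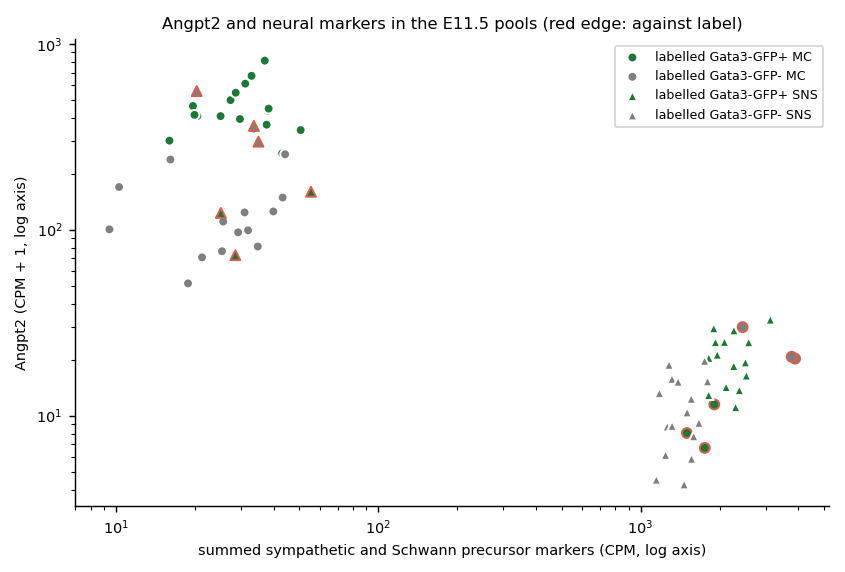
Angpt2 (CPM + 1, log axis) against the summed sympathetic and Schwann precursor markers (CPM, log axis) in the E11.5 pools, by label (circles MC, triangles SNS, green Gata3-GFP+, grey Gata3-GFP-), with a red edge on the 12 pools against their labels. Pools with at most 55.4 CPM of neural markers hold 50.4 CPM of Angpt2 or more, and pools with 1149 or more hold 31.8 or less, whatever their label.

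Between the E11.5 cell types, 4 ligands were lower in SNS than in MC pools and no member was higher, over 17733 genes of which 11.4% were higher and 12% lower. These were Angpt1 (log2 fold change -2.20, SE 0.547, adjusted p = 0.000985), Angpt2 (-1.99, SE 0.401, adjusted p = 6.67e-05), Vegfc (-1.98, SE 0.518, adjusted p = 0.00172) and Vegfb (-0.51, SE 0.136, adjusted p = 0.00217). The Vegfb call was lost in edgeR with ERCC scaling (-0.0102, adjusted p = 0.952). In that setting Tek (-2.19, adjusted p = 0.00503) was called lower and Flt4 (2.09, adjusted p = 0.00369) higher. Without the 12 pools the count was 7 lower and 1 higher, with 20.5% of genes higher and 19.7% lower, and the log2 fold change of Angpt2 was -4.07 and that of Angpt1 -4.46. The change of Angpt2 with Gata3-GFP differed between SNS and MC pools over all passing pools (-2.87, SE 0.795, adjusted p = 0.00669, with 5.17% of genes higher and 4.49% lower in that interaction term). Without the 12 pools it was -0.87 (adjusted p = 0.0266, with 4.73% higher and 5.64% lower), and edgeR called no member, with 4 of 9 at an unadjusted p under 0.05.

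Against the ECs, MC pools held less of the 5 receptors and of Vegfc (log2 fold change -2.68, SE 0.364, adjusted p = 8.9e-11) and more Angpt2 (4.69, SE 0.388, adjusted p = 2.68e-22), Angpt1 (2.12, SE 0.473, adjusted p = 4.77e-05) and Vegfb (1.21, SE 0.155, adjusted p = 1.04e-11), where 26.7% of 20080 genes were higher and 22.2% lower. The same 9 members were called without the 12 pools, where 24.8% were higher and 22.9% lower. SNS pools held less of the 5 receptors and of Vegfc (-4.70, SE 0.406, adjusted p = 4.46e-21) and more Angpt2 (2.70, SE 0.363, adjusted p = 6.29e-11) and Vegfb (0.70, SE 0.154, adjusted p = 3.75e-05), with 27.8% of genes higher and 23.4% lower. Without the 12 pools Angpt2 was 0.85 higher (SE 0.241, adjusted p = 0.00141) on the log2 scale, and Angpt1 (-2.06, adjusted p = 2.13e-05) and Vegfa (-0.87, adjusted p = 0.00299) were also lower than in ECs, with 26.7% of genes higher and 24.7% lower. MC and SNS cells were taken at E11.5 and ECs at E10.5, so cell type and stage cannot be told apart in these comparisons.

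Genes that work with the members were counted in 4 lists, each to be read beside the 19.5% of all genes called higher and 16.5% called lower in ECs. Of 5 tested members of the family and its processing in ECs, 3 were higher in the Gata3-GFP+ fraction, among them Pgf (log2 fold change 4.08, SE 0.722, adjusted p = 8.92e-06), a ligand of Flt1, and Ptprb (2.40, SE 0.121, adjusted p = 3.36e-20), the phosphatase that acts on Tek. The neuropilin Nrp2, a partner of Flt4, was the 1 that was lower (-4.09, SE 0.378, adjusted p = 4.09e-12), and the list's median was 2.37 beside 0.10 for all genes. Of 25 tested receptor signalling genes 4 were higher, a share below that of all genes, with Dok2 (2.75) and the nitric oxide synthase Nos3 (1.68) first, and Map2k1 (-0.63) and Fyn (-0.38) lower, with a median of 0.17. Of 15 hypoxia axis genes, which include the regulators of Vegfa and other targets of the same factors, 3 were higher, led by Epas1 (2.23, SE 0.123, adjusted p = 7.12e-19), and 5 lower, led by the glycolytic Ldha (-1.23, SE 0.0764, adjusted p = 2.53e-17) and by Pdk1 (-1.01), with a median of -0.80. Of 9 tested genes known to be induced by VEGF in endothelium, Cxcr4 (3.36) and the Notch ligand Dll4 (2.50) were higher and Apln (-3.45) and Hlx (-1.35) lower, shares near those of all genes, with a median of -0.15.

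In HCs none of the 7 tested family and processing genes was called by edgeR or by DESeq2 (3 had an unadjusted p under 0.05 in edgeR and 4 in DESeq2), while 9 of 26 receptor signalling genes were higher, with the kinases Prkca (2.98) and Src (2.78) first, and 6 lower, with Prkcb (-0.95) and Map2k1 (-0.66) first. The list's median was 0.34 beside 0.05 for all genes, of which 17.1% were higher and 9.53% lower. Of 14 hypoxia axis genes 2 were higher (Ndrg1 at 2.25 and Epas1 at 1.98) and 2 lower (Pgk1 at -0.43 and Ldha at -0.22), shares near those of all genes, and of 6 VEGF-induced genes Pdgfb (2.25) and Rcan1 (1.34) were higher. In MCs, where 2.21% of all genes were higher and 2.15% lower, 3 of 7 family genes were higher, with Adamts3, the protease that processes Vegfc, at 2.71 (SE 0.497, adjusted p = 0.000322) and Pgf at 1.4997 (SE 0.370, adjusted p = 0.00661). Gab1 (0.67) and Hlx (2.45) were the others called in MCs, and in SNS pools, where 2.01% of all genes were higher and 1.86% lower, Prkca (0.95) was higher and Pdk1 (-1.45) and Dusp5 (-1.17) lower. With the 12 pools left out, where 5.52% of all genes were higher and 4.89% lower in MCs, 4 of 7 family genes were higher in Gata3-GFP+ MCs and 1, Nrp2 (-1.23, SE 0.342, adjusted p = 0.00996), lower, 3 of 24 receptor signalling genes were higher, 1 of 14 hypoxia axis genes was lower and 1 of 5 VEGF-induced genes higher. In SNS pools, where 4.94% of all genes were then higher and 5.48% lower, 4 of 25 receptor signalling genes were higher, 1 of 15 hypoxia axis genes was higher and 3 lower, and 2 of 5 VEGF-induced and 1 of 5 family genes were lower. Prkca (1.03), Pdk1 (-1.74) and Dusp5 (-1.29) kept their calls in that fit.

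The genes whose levels across all passing pools were most like each member were taken from 12238 candidates with a mean of at least 5 CPM, by Pearson correlation of log2(CPM + 1). These pools share their cell type in blocks of about 20 and the libraries differ in depth, so the values describe the 8 populations more than single pools. Cdh5 was the gene most like Kdr (r = 0.934), Tek (r = 0.963) and Tie1 (r = 0.977), Cd93 most like Flt1 (r = 0.929) and Bcl6b most like Flt4 (r = 0.973). Vegfc was most like Cavin1 (r = 0.854), Angpt2 most like Kcnj8 (r = 0.871), a gene of mural cells, Vegfa most like Dkk2 (r = 0.761), Angpt1 most like Twist1 (r = 0.700) and Vegfb most like Lrp1 (r = 0.679). Over the 39 EC pools with the mean of each fraction removed, Nrp1 was most like Tie1 (r = 0.737) and Tie1 was the second most like Flt1 (r = 0.662), while Hey1 (r = 0.576), Efnb2 (r = 0.569) and Mecom (r = 0.568) were the nearest to Vegfc.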

How the data were processed

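RNA was measured by SmartSeq2, a full-length protocol, in 160 pools of 20 sorted cells with ERCC spike-in RNAs. The authors deposited counts of reads per gene, whole numbers that are not normalized, made with HTSeq. The paper names STAR as aligner with Ensembl annotation, while the submitters' processing notes name GSNAP 2015-09-29 and HTSeq 0.5.3p3 with mm10, so the aligner is uncertain. A median of 16.3% of reads (4.62% to 19.8%) was ambiguous between genes and stayed out of the counts. Strand was not stated. Pools with under 500000 reads on genes, under 20% of reads on genes, or over 20% mitochondrial or ERCC reads were left out, which left 153.

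From the counts, levels were computed as CPM with TMM factors, per kilobase of merged exons (GENCODE M21) where genes are compared. Each comparison was fitted, over every gene that reached 10 counts in 5 or more of its pools, by the robust quasi-likelihood test of edgeR 4.0.16 (R 4.3.3), and a gene was called where its log2 fold change exceeded 0.1 in size with an adjusted p (Benjamini-Hochberg) below 0.01. The named genes were all 10 members, and of each pathway list at most the 2 called genes that rose and the 2 that fell most. The members and lists were chosen with earlier results of these data known. Neighbouring populations were called apart where their mean log2(CPM + 1) differed by more than the larger SD. The alternatives were DESeq2 1.42.0 and scran 1.30.0 size factors, ERCC factors, other filters, all pools, joint fits, the DESeq2 Wald test and the test of scanpy 1.11.5. Leaving out 12 pools against their labels, or 1 EC pool with mural markers, was chosen after seeing the data. The scripts were tested on simulated data.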

Additional observations from a re-analysis of the deposited data

Results flagged for a closer look

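The change with Gata3-GFP differed between HCs and ECs for 4 members by the interaction term of edgeR, and between SNS and MC pools for 1. Flt4 was lower in Gata3-GFP+ ECs (log2 fold change -1.06) and was 0.62 in HCs without passing, a difference of 1.69. Angpt2 was lower in Gata3-GFP+ ECs (-1.30) and was 1.43 in HCs without passing (adjusted p = 0.0217), a difference of 2.70. Kdr rose by 0.29 in ECs, a call that turned direction with ERCC scaling (-0.26), and by 1.99 in HCs, a difference of 1.72 that did not pass in one fit of all 8 populations (adjusted p = 0.0129). Vegfa rose by 3.63 in ECs and was 1.45 in HCs without passing (adjusted p = 0.0306), a difference of -2.14 that did not pass with ERCC scaling (adjusted p = 0.0162). Angpt2 rose by 1.86 in MCs and was -1.01 in SNS pools without passing (adjusted p = 0.394), a difference of -2.87. Without the 12 pools whose markers go against their labels, Angpt2 in SNS pools turned to 0.99 and was called, and the difference was -0.87 (adjusted p = 0.0266).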

How the results depend on the processing

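Most results kept their direction and their side of the threshold. Over the other settings, 79 of the counts of members called stayed within 1.5 times, 3 rose and 2 fell, and of the single member changes 736 kept their call and direction, 13 gained a call, 11 lost one and 16 turned direction. In MCs, 0 members were called in one fit of the 4 populations of the stage (Angpt2 adjusted p = 0.0214) and 0 by scanpy (0.0574), against 1. In SNS pools 1 was called by DESeq2 and 2 without the 12 pools against their labels, against 0. Between SNS and MC pools 7 were called in one fit of all 8 populations and 8 without the 12 pools, against 4, and for the difference of their Gata3-GFP changes 2 and 0, against 1. The causes were not tested. Adding 0.1 or 5 in place of 1 CPM per kilobase moved 9 of 48 mean ratios between members by more than their SD, 7 with 0.1 and 2 with 5, and ERCC scaling moved 8 mean levels, 6 of them in Gata3-GFP+ ECs.

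Scaling by the ERCC RNAs moved the median log2 fold change of all genes by -0.70 in ECs, 0.35 in SNS pools, 0.39 for HCs against ECs, 0.63 for the difference of the Gata3-GFP changes between HCs and ECs, 0.48 for SNS against MC pools, 0.38 for the difference between their changes, 0.49 for MC and 0.97 for SNS pools against ECs. Scran factors moved it by -0.12 for the HC and EC difference and by -0.10 to -0.11 in ECs and for MC and SNS pools against ECs. With ERCC scaling these turned direction: Kdr in ECs (-0.26), Vegfb in SNS pools (0.18), Angpt2 between HCs and ECs (0.11), Flt1 in the HC and EC difference (0.0269), Kdr (0.35) and Vegfa (0.0230) between SNS and MC pools, Vegfb in their difference (0.0049), Vegfa between MCs and ECs (0.19), and Vegfa (0.22) and Angpt1 (0.55) between SNS pools and ECs. The share of higher genes among those called went from 54.1% to 14.3% in ECs, 50.7% to 72.4% in MCs, 52% to 83.3% in SNS pools, 52.6% to 74.7% for HCs against ECs, 62.2% to 90.99% (50.98% with scran factors) for the HC and EC difference, 48.5% to 89.2% for SNS against MC pools, 53.5% to 76.3% for their difference, and 54.6% to 82.8% and 54.3% to 89.3% for MC and SNS pools against ECs.

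Other settings turned Flt1 (-1.40) and Angpt2 (1.37, called) in SNS pools and Tek (0.0164) in the SNS and MC difference with DESeq2, Angpt2 in SNS pools with scanpy (0.66), and Vegfa (-0.0376) and Tek (0.0777) in the SNS and MC difference with all pools kept. Without the 12 pools, an alternative chosen after seeing the data, Angpt2 in SNS pools (0.99) and Vegfa in that difference (-0.19) turned. Genes called over the whole table numbered 698 in MCs, 625 in SNS pools and 4148 between them, against 381, 1013 and 8545 with ERCC scaling and 1585, 1631 and 6963 without the 12 pools. No paired analysis was possible because the columns carry no pool number that the populations share. A simulated EC comparison of 15073 genes recovered 47 of 95 changed genes at 2-fold and 68 of 95 at 4-fold, so changes of these sizes could be missed at this depth. Recovery was not split by level and the other cell types were not simulated. How often changes of low members were missed is therefore not known.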
